A study of Saccharomyces cerevisiae with 18 samples.

Results

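The alpha-specific mating genes of Saccharomyces cerevisiae were followed across 8 genotype groups. They are the genes MF(ALPHA)1, MF(ALPHA)2, STE3, SAG1 and AFB1, and each was chosen as a probe set of the array that names that gene symbol alone. All 5 members had such a probe set, out of 5656 genes that a probe set named alone. Total RNA had been hybridised to 18 one-colour Affymetrix YG_S98 arrays, and the signal of a probe set is an intensity in arbitrary units. The groups were wild type (n = 3), a deletion of RPD3, the gene of a histone deacetylase (n = 2), and a histone H3 without residues 1 to 28, the H3 tail deletion (n = 2). In the H3 lysine substitution (n = 3), lysines 4, 9, 14, 18, 23 and 27 of H3 were replaced by glutamine. The H4 tail deletion (n = 2) lacked residues 2 to 26 of histone H4, and in the H4 lysine substitution (n = 2) glutamine stood in place of lysines 5, 8, 12 and 16 of H4. The H3 double mutant (n = 2) combined the RPD3 deletion with the H3 tail deletion, and the H4 double mutant (n = 2) combined it with the H4 lysine substitution. Each group was 1 named strain. Mating type, growth conditions and the relation of a group's arrays to cultures (separate or shared) were not stated in the sources used here.

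Haploid yeast cells are of mating type a or alpha, and each type expresses a small set of genes of its own. In alpha cells the protein alpha1, encoded at the mating-type locus, activates the alpha-specific genes together with the general factor Mcm1, and Ste12 acts on many promoters of the mating response. Alpha cells secrete the pheromone alpha-factor, sense a-factor from their partners through the receptor Ste3, and bind a cells through the agglutinin Sag1. Rpd3 removes acetyl groups from histone tails, and glutamine is used as a stand-in for acetylated lysine.

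Markers of both mating types were read first. Summed signal of the 5 members ran from 52256 to 90247 over the wild-type arrays. The 7 genes of the a-specific list summed to between 1092 and 1822 on the same arrays, and to between 1368 and 2263 on the mutant arrays. Of the a-specific genes, STE2, which encodes the receptor for alpha-factor, and ASG7 were under the floor of 140.2 (the pooled 25th percentile of signal) on every array, and AGA2 was above it on 1 array. RPD3 itself read 1001, 959.4 and 689.8 on the wild-type arrays and lay between 9.398 and 80.7 on the 6 arrays labelled as RPD3 deletions. Array file headers named another strain than the labels on 3 arrays, the second arrays of the H3 tail deletion, the H4 tail deletion and the H3 double mutant. Over all tested probe sets, the H3 tail deletion and H4 tail deletion arrays among these correlated best with their labelled groups (r = 0.977 and 0.982). The H3 double mutant array correlated at 0.958 with the other array of its label and at 0.964 with the H3 lysine substitution. Results that rest on these arrays are given with and without them where their call differs.

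Sampling days fell into an earlier and a later period. The RPD3 deletion, both tail deletions and the H3 double mutant were sampled in the earlier period with the first and second wild-type arrays. Both lysine substitutions and the H4 double mutant were sampled in the later period, as was the third wild-type array, whose header alone named an amplification kit. Period therefore differed between most wild-type arrays and these 3 groups, and within-period values are given below. The ratio of 3′ to 5′ actin signal, a measure of RNA quality, was 1.37 to 1.41 in wild type and 1.66 to 1.68 in the RPD3 deletion. It was 1.44 to 1.85 in the H3 tail deletion, 1.53 to 1.76 in the H3 double mutant and 1.5 in the H4 tail deletion. The H3 lysine substitution had 1.19 to 1.54, the H4 lysine substitution 1.38 to 1.4 and the H4 double mutant 1.2 to 1.49. Results whose size or call changed with this ratio as a covariate are given below.

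Against wild type, members of the alpha-specific set were lower in every mutant, but the set did not move as 1 block. In the RPD3 deletion 4 of 5 members were called lower, where 4.14% of all 7850 tested probe sets were called lower. Calls are an adjusted p under 0.05 in limma. In the H3 tail deletion 4 of 5 were called lower against a background of 2.98%, and in the H3 lysine substitution 4 of 5 against 13.7%. All 5 were called lower in the H4 tail deletion, against 15.1%, and all 5 in the H3 double mutant, against 8.14%. The H4 double mutant had 4 of 5 called lower, against 12.9%. The H4 lysine substitution stood apart with 2 of 5, SAG1 and AFB1, against 16.5%. Of these 35 member comparisons 28 were called lower and 0 higher, and 0 were higher at an unadjusted p under 0.05. The 7 contrasts share the wild-type arrays, so they are not independent of each other. Arrays of a mutant and of wild type did not overlap in 36.3% to 50.6% of all tested probe sets, depending on the mutant. Between the mutants compared below that share was 39.4% to 68.6%. Lack of overlap is thus common at these group sizes. In RNA from whole cultures, fewer expressing cells and less RNA per cell cannot be told apart.

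**Figure D1:**
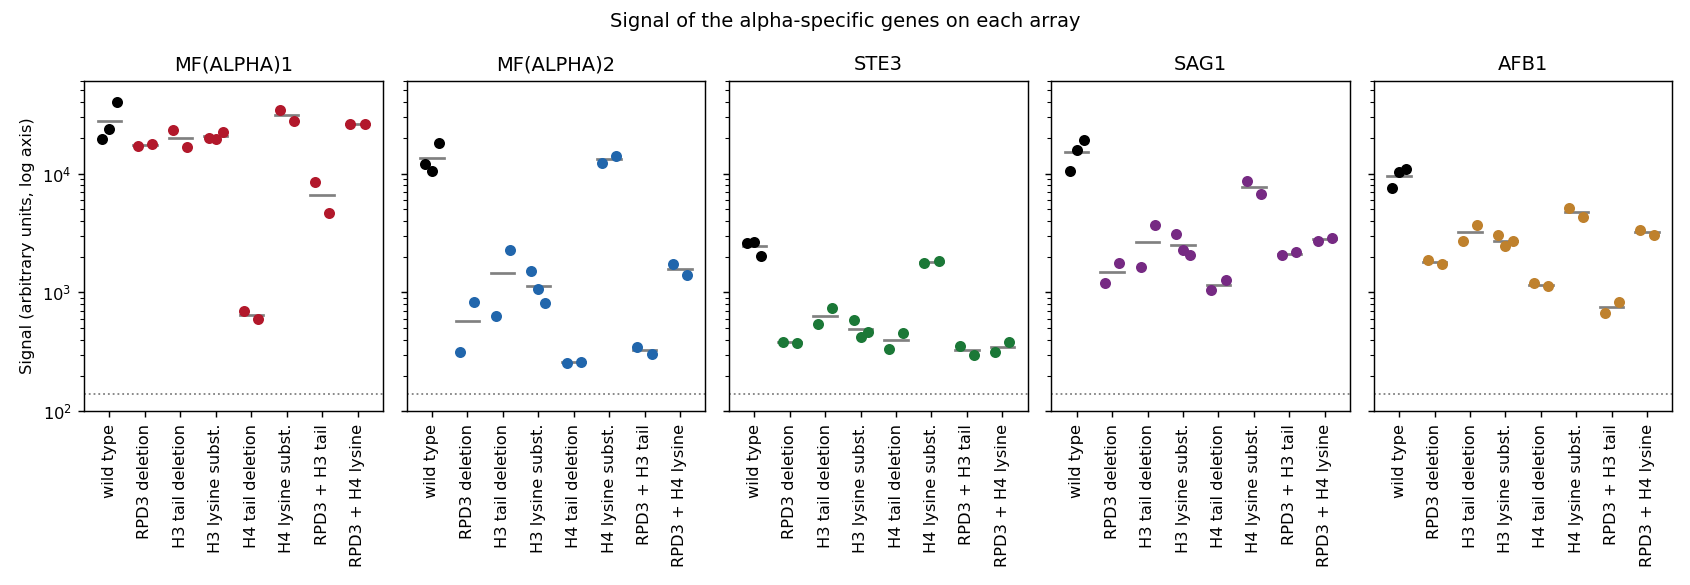
Each point is the signal of 1 array in arbitrary units on a log axis, for the 5 alpha-specific genes in 8 groups, grey bars are group means and the dotted line is the floor of 140.2. MF(ALPHA)1 stays at or above 16653 on all arrays outside the H4 tail deletion and the H3 double mutant, while MF(ALPHA)2 reads at most 2266 in every mutant but the H4 lysine substitution.

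MF(ALPHA)1 (probe set 7927_at) encodes most of the alpha-factor that alpha cells make, as a precursor that is cut into several copies of the peptide. Its signal was 19529, 23844 and 40157 in wild type. Arrays of the RPD3 deletion read 17042 and 17730, those of the H3 tail deletion 23326 and 16653, and those of the H3 lysine substitution 19915, 19397 and 22459. Both H3 groups overlapped wild type, and the RPD3 deletion lay just below it. The signals were 33910 and 27779 in the H4 lysine substitution and 26234 and 26339 in the H4 double mutant, all within the wild-type range. Far below stood the H3 double mutant at 8571 and 4691 and the H4 tail deletion at 700.3 and 602.8. Neither of these groups overlapped any other.

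The log2 change of MF(ALPHA)1 was -5.35 ± 0.29 (SE) in the H4 tail deletion, a 40.9-fold fall (adjusted p = 8.47e-08). In the H3 double mutant it was -2.07 ± 0.29, a 4.19-fold fall (adjusted p = 0.000213). Changes in the other 5 mutants lay between -0.61 in the RPD3 deletion (adjusted p = 0.183, 95% interval -1.23 to 0.01) and 0.21 in the H4 lysine substitution (adjusted p = 0.644, -0.41 to 0.83). None of the 5 was called, and those intervals leave room for falls of up to 1.23 on the log2 scale. Within the later period, where wild type had 1 array and MF(ALPHA)1 read highest, its differences were -0.97 in the H3 lysine substitution, -0.39 in the H4 lysine substitution and -0.61 in the H4 double mutant. Within the earlier period they were -0.31 in the RPD3 deletion, -0.13 in the H3 tail deletion, -5.05 in the H4 tail deletion and -1.77 in the H3 double mutant.

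MF(ALPHA)2 (probe set 5108_at) encodes the minor source of alpha-factor. Wild-type signals were 12060, 10553 and 17898, and the H4 lysine substitution, at 12299 and 14128, lay inside that range. All other mutant arrays, 13 of 15, were below the lowest wild-type array. Among them, RPD3 deletion arrays read 312.7 and 834. H3 tail deletion arrays read 628.3 and 2266, and H3 lysine substitution arrays 1503, 1070 and 813.7. The H4 double mutant read 1749 and 1394, the H3 double mutant 345.7 and 305.1 and the H4 tail deletion 257.3 and 261.7. The arrays of the RPD3 deletion and of the H3 tail deletion were farther apart than those of any other mutant group for this gene, as a ratio.

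MF(ALPHA)2 fell most of all 7850 tested probe sets in the RPD3 deletion, in the H3 lysine substitution and in the H3 double mutant, as a rank by size of change, rank 1 from the lowest. Its log2 change was -4.69 ± 0.48 in the RPD3 deletion, 25.8-fold (adjusted p = 4.45e-05), -3.59 ± 0.43 in the H3 lysine substitution (adjusted p = 0.000101) and -5.34 ± 0.48 in the H3 double mutant, 40.5-fold (adjusted p = 9.77e-06). The fall in the H4 tail deletion was the deepest, -5.66 ± 0.48 or 50.7-fold (adjusted p = 8.16e-06), and that of the H4 double mutant was -3.08 ± 0.48 (adjusted p = 0.000759). In the H4 lysine substitution the change was 0.00 ± 0.48, with a 95% interval from -1.02 to 1.02 (adjusted p = 1). The 2 pheromone genes are paralogs, and hybridisation of one transcript to the probe set of the other was not tested.

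The size of the MF(ALPHA)2 fall depended on single arrays and on batch terms. In the RPD3 deletion it was -3.98 without the first array of the RPD3 deletion and -5.39 without the second. In the H3 tail deletion, where the change was -3.46 ± 0.48 (adjusted p = 0.000588), it was -2.54 without the first array and -4.39 without the second, whose header named another strain. In the RPD3 deletion it was -4.05 with sampling day as a block, -3.95 with chip lot and -3.96 with the actin ratio as a covariate. These terms gave -2.82, -2.73 and -2.82 in the H3 tail deletion. For the H3 double mutant they gave -4.70, -4.60 and -4.69. In the H4 tail deletion day and lot gave -4.52 and -4.40, each from a single array of that group. Its first array had no chip lot. Its second, whose header named another strain, was the only array of its day. Chip lot moved it the other way in the H3 lysine substitution (-4.26) and the H4 double mutant (-4.21). All these values kept an adjusted p under 0.05.

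STE3 (probe set 10741_at) encodes the receptor for a-factor. It read 2612, 2660 and 2041 in wild type and 1764 and 1821 in the H4 lysine substitution. The remaining mutants lay in a narrow band, from 299.6 in the H3 double mutant to 733.8 in the H3 tail deletion, and all 15 mutant arrays were below the lowest wild-type array. Arrays of the RPD3 deletion read 382.7 and 377.7, those of the H4 tail deletion 336 and 457.9 and those of the H4 double mutant 314.5 and 379.6. These 3 groups overlapped each other.

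Log2 changes of STE3 were -2.67 ± 0.22 in the RPD3 deletion (6.37-fold, adjusted p = 1.13e-05), -1.94 ± 0.22 in the H3 tail deletion (3.83-fold, adjusted p = 0.000257) and -2.32 ± 0.20 in the H3 lysine substitution (4.99-fold, adjusted p = 1.87e-05). They were -2.63 ± 0.22 in the H4 tail deletion, -2.89 ± 0.22 in the H3 double mutant and -2.81 ± 0.22 in the H4 double mutant, so 5 of the 6 falls were between 4.99 and 7.42-fold. In the H4 lysine substitution STE3 was -0.43 ± 0.22, 1.35-fold lower on average, and was not called (adjusted p = 0.172, 95% interval -0.91 to 0.05).

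SAG1 (probe set 11026_at) encodes alpha-agglutinin, the cell wall protein with which alpha cells adhere to a cells. Wild-type arrays read 10455, 15818 and 19227. The H4 lysine substitution was next, at 8706 and 6769, and no array of any mutant reached the lowest wild-type array. The other groups ran from 3659 in the H3 tail deletion down to 1054 in the H4 tail deletion. The RPD3 deletion read 1189 and 1773, the H3 double mutant 2053 and 2193 and the H4 double mutant 2700 and 2884. For this gene both double mutants thus read above both arrays of the RPD3 deletion.

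SAG1 fell 10.1-fold in the RPD3 deletion (log2 -3.34 ± 0.32, adjusted p = 2.96e-05) and 12.7-fold in the H4 tail deletion (-3.66 ± 0.32, adjusted p = 1.34e-05). Its changes were -2.59 ± 0.32 in the H3 tail deletion, -2.58 ± 0.29 in the H3 lysine substitution, -2.79 ± 0.32 in the H3 double mutant and -2.40 ± 0.32 in the H4 double mutant, all called. The fall in the H4 lysine substitution was 1.92-fold (-0.94 ± 0.32) and only just passed the test (adjusted p = 0.0484). It was not called without the second wild-type array (-0.89), without the third (-0.74), or without either array of the H4 lysine substitution (-1.12 and -0.76). With the replicate number as a block it was -0.90 (adjusted p = 0.0622), and with chip lot -1.85 (adjusted p = 0.103). Of its 19 alternatives 7 called it. In the other mutants SAG1 stayed called with lot as a block, and with day where that could be fitted, and its size moved: with day it was -2.54 in the RPD3 deletion, -1.79 in the H3 tail deletion, -2.0 in the H3 double mutant and -2.70 in the H4 tail deletion. With lot it was -2.72 in the H4 tail deletion and -3.31 in the H4 double mutant. The H4 tail deletion values with day and with lot each rested on a single array of that group.

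AFB1 (probe set 10292_at) encodes a secreted protein of alpha cells that blocks a-factor. Its wild-type signals were 7599, 10360 and 10925. Below these came the H4 lysine substitution at 5117 and 4337, the H4 double mutant at 3356 and 3042 and the H3 tail deletion at 2722 and 3721. The H3 lysine substitution read 3059, 2450 and 2689, the RPD3 deletion 1879 and 1733, the H4 tail deletion 1192 and 1126, and the H3 double mutant, the lowest for this gene, 666.1 and 832.4. Wild type and the H4 lysine substitution overlapped no other group, nor did the 3 lowest groups. Of all tested probe sets, 36.3% to 50.6% did not overlap between a mutant and wild type.

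AFB1 fell in all 7 mutants. The change was 12.8-fold in the H3 double mutant (log2 -3.67 ± 0.19, adjusted p = 9.54e-08), 8.21-fold in the H4 tail deletion (-3.04 ± 0.19, adjusted p = 3.38e-07) and 5.27-fold in the RPD3 deletion (-2.40 ± 0.19, adjusted p = 1.01e-05). It was -1.58 ± 0.19 in the H3 tail deletion, -1.81 ± 0.17 in the H3 lysine substitution, -1.57 ± 0.19 in the H4 double mutant and -1.01 ± 0.19 in the H4 lysine substitution (2.02-fold, adjusted p = 0.0021). With chip lot as a block the last of these was -1.47 and not called. With day as a block the H4 tail deletion was -2.45, from its first array alone.

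**Figure D2:**
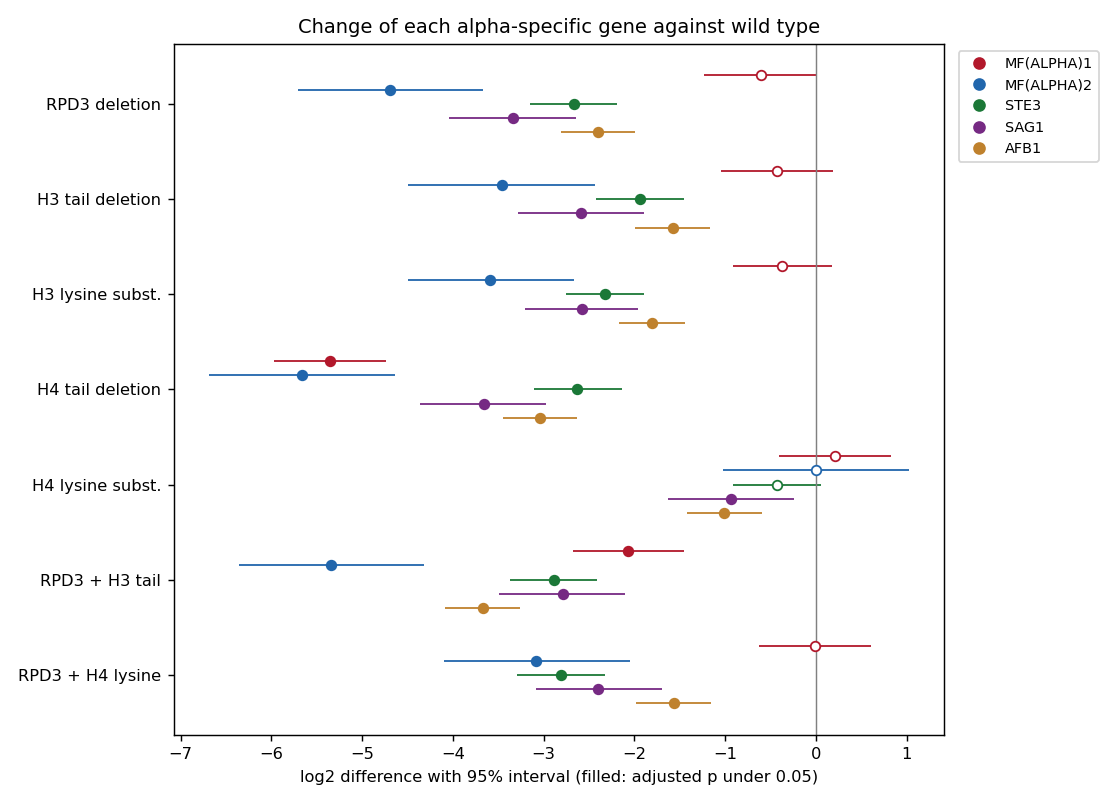
Points are log2 differences from wild type for each gene in the 7 mutants and bars their 95% intervals, with filled points for an adjusted p under 0.05. MF(ALPHA)1 is an open point near 0 in 5 mutants, and the H4 lysine substitution is the mutant whose changes lie nearest to 0, between -1.01 and 0.21.

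MF(ALPHA)2, STE3, SAG1 and AFB1 were on average below wild type within each mutant's own sampling period. Within the earlier period the 4 genes changed by -4.47 to -2.30 in the RPD3 deletion, by -3.24 to -1.48 in the H3 tail deletion, by -5.44 to -2.75 in the H4 tail deletion and by -5.12 to -2.60 in the H3 double mutant. Against the 1 wild-type array of the later period they changed by -4.03 to -2.01 in the H3 lysine substitution, by -1.32 to -0.19 in the H4 lysine substitution and by -3.52 to -1.77 in the H4 double mutant. For the H4 lysine substitution, STE3 (-0.19) and MF(ALPHA)2 (-0.44) had no call to keep, and SAG1 (-1.32) was not called with period as a block (adjusted p = 0.0722) or against the wild-type array of its period (adjusted p = 0.0634). The other calls of these 4 genes against wild type were kept with period as a block. Day B held 1 array each of wild type, the RPD3 deletion, the H3 tail deletion and the H3 double mutant. Its arrays of the H3 tail deletion and the H3 double mutant had another strain in their headers. On that day MF(ALPHA)2 differed from wild type by -3.85, -2.41 and -5.30, SAG1 by -2.56, -1.51 and -2.25, AFB1 by -2.13, -1.03 and -3.19, STE3 by -2.79, -1.83 and -3.12, and MF(ALPHA)1 by -0.14, -0.23 and -2.06, in the same order of mutants. For SAG1 these are smaller than the changes over all arrays, -3.34, -2.59 and -2.79. With only wild type and the H3 tail deletion in the fit, none of the 4 genes kept its call in that mutant, at adjusted p of 0.0626 to 0.118. In such a fit MF(ALPHA)1 in the H3 double mutant and SAG1 and AFB1 in the H4 lysine substitution lost their calls too. Over all alternatives of the H3 tail deletion the adjusted p of these genes ran from 0.000108 to 0.118.

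MF(ALPHA)1 was set against each of the other members on the same arrays, as its log2 change from wild type minus that of the other gene. The RPD3 deletion arrays gave differences of 3.40 and 4.76 against MF(ALPHA)2, and the H3 tail deletion arrays gave 1.87 and 4.20. It was 2.72 to 3.77 in the H3 lysine substitution, 2.93 and 3.62 in the H3 double mutant and 2.89 and 3.23 in the H4 double mutant. Wild-type arrays ran from -0.32 to 0.16 on this measure, and none of these groups overlapped them. In the H4 tail deletion the difference was 0.19 and 0.43, also above the wild-type arrays but smaller, so that both pheromone genes had fallen by nearly as much there.

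Against STE3, SAG1 and AFB1 the sign of the difference turned in the H4 tail deletion. MF(ALPHA)1 fell further than these genes in that mutant, by a mean of 2.73 on the log2 scale against STE3 (difference -2.73), of 1.69 against SAG1 (-1.69) and of 2.32 against AFB1 (-2.32). In the RPD3 deletion the means were 2.06, 2.73 and 1.79 in the same order, the other way round. STE3 read 2041 to 2660 in wild type, where a 40.9-fold fall like that of MF(ALPHA)1 would lie below the floor of 140.2. The difference against STE3 in the H4 tail deletion therefore cannot show that STE3 responded less. An exact permutation test of 2 arrays against 3 cannot go below a two-sided p of 0.2, and of 3 against 3 below 0.1. Of 28 such two-sided tests the smallest adjusted p was 0.224, so these differences of change are given by their size only. Lack of overlap with wild type is the same event as the smallest possible p, and adds no support.

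**Figure D3:**
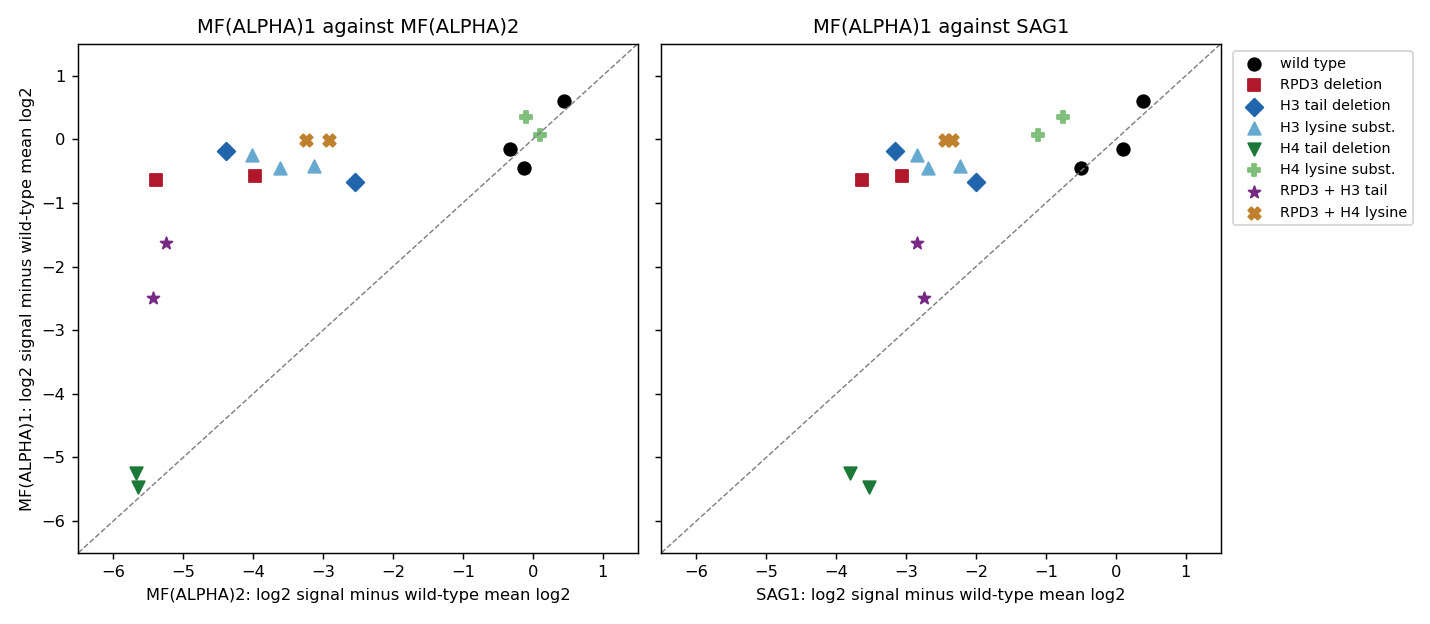
Each point is 1 array, with the log2 signal of MF(ALPHA)1 relative to the wild-type mean on the vertical axis and that of MF(ALPHA)2 (left) or SAG1 (right) on the horizontal axis, and the dashed line marks equal change. Arrays of 4 mutants lie far left of the line at little change of MF(ALPHA)1. On the vertical axis the H3 double mutant lies between these and the H4 tail deletion, which lies low on both axes.

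Over the 18 arrays, the log2 signals of MF(ALPHA)2, STE3, SAG1 and AFB1 correlated with each other at r = 0.839 to 0.948, and MF(ALPHA)1 with the 4 of them at 0.422 to 0.659. These are descriptions over arrays that share groups, days and scaling. The lowest of them was MF(ALPHA)1 with STE3 and the highest was MF(ALPHA)2 with SAG1.

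Deleting RPD3 was measured on 3 histone backgrounds. On the H3 tail deletion, 2 of 5 members were called, both lower, where 1.34% of probe sets were called in either direction. AFB1 fell by 2.10 on the log2 scale (SE 0.21, adjusted p = 0.00014), and MF(ALPHA)1 changed by -1.64 ± 0.31 (adjusted p = 0.0219), from 23326 and 16653 to 8571 and 4691. MF(ALPHA)2 (-1.88 ± 0.52) and STE3 (-0.96 ± 0.25) were lower on average and not called, at adjusted p of 0.104 and 0.0789, and SAG1 differed by -0.21 ± 0.36. The MF(ALPHA)1 call was lost without the first H3 tail deletion array (-1.39), without the second (-1.88), without the second double mutant array (-1.20), and without every array with another strain in its header (-1.44). STE3 was called under quantile normalization (-1.02) and median centring (-1.01). MF(ALPHA)2 was called without the first H3 tail deletion array (-2.80).

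On the H4 lysine substitution, with both groups from 1 day and 1 chip lot, 3 of 5 members were called lower, against 3.43% in either direction. MF(ALPHA)2 went from 12299 and 14128 to 1749 and 1394 (log2 -3.08 ± 0.52, 8.44-fold, adjusted p = 0.00786), the largest fall of all tested probe sets. STE3 went from 1764 and 1821 to 314.5 and 379.6 (-2.37 ± 0.25, 5.19-fold, adjusted p = 0.000422), and SAG1 from 8706 and 6769 to 2700 and 2884 (-1.46 ± 0.36, adjusted p = 0.0406). In all 5 members, called or not, the arrays of the groups did not overlap, as in 57.8% of all tested probe sets at 2 arrays against 2. AFB1 was lower on average (-0.56 ± 0.21) and not called (adjusted p = 0.15), and MF(ALPHA)1 differed by -0.22 (95% interval -0.90 to 0.45).

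Of those 3 calls, STE3 was kept whichever array was left out. MF(ALPHA)2 lost its call without the second H4 lysine substitution array (-2.98) or either array of the double mutant (-3.24 and -2.91). SAG1 lost it without any 1 of the 4 arrays, at -1.28 and -1.64 without the arrays of the H4 lysine substitution and -1.41 and -1.51 without those of the double mutant.

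Whether the RPD3 deletion did the same with and without the histone mutation was tested as an interaction, positive where the double mutant was higher than the summed log2 changes of its single mutants. For the H3 tail 3 of 5 members were called, all positive, against 5.18% in either direction. SAG1 had an interaction of 3.13 ± 0.48 (adjusted p = 0.0045), STE3 of 1.72 ± 0.33 (adjusted p = 0.0111) and MF(ALPHA)2 of 2.81 ± 0.71 (adjusted p = 0.0367). SAG1 was thus 6.93-fold below wild type in the double mutant, against 10.1-fold and 6.00-fold in the single mutants. For MF(ALPHA)2 and STE3 the summed single changes would lie below the floor of 140.2, to which low signals were raised. Their interactions therefore had to be positive, and cannot show that the effect of deleting RPD3 differed. In the double mutant MF(ALPHA)2 read 345.7 and 305.1 and STE3 355.2 and 299.6. AFB1 had an interaction of 0.30 ± 0.28 and MF(ALPHA)1 of -1.03 ± 0.43, neither called (adjusted p = 0.567 and 0.171), and MF(ALPHA)1 was called under quantile normalization (-1.34) and without the first double mutant array (-1.46).

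The MF(ALPHA)2 interaction was the least firm of the 3. Of 23 alternatives, which ran from 1.88 to 3.83, 10 called it. With the replicate number as a block it was 2.81 with an adjusted p of 0.0618. It was not called with sampling day (2.17), period (2.59, adjusted p = 0.0696) or chip lot (2.07, adjusted p = 0.0979) as a block, with the actin ratio as a covariate (2.09, adjusted p = 0.0911), or with no filter on low values (adjusted p = 0.0731). It was not called without the third wild-type array (2.59), the first RPD3 deletion array (2.10), the first H3 tail deletion array (1.88) or either double mutant array (2.72 and 2.90), and the arrays with another strain in their headers, left out together, gave 3.83, not called either (adjusted p = 0.0556). Left out alone, the second RPD3 deletion array gave 3.52 and the second H3 tail deletion array 3.74, both called. With sampling day as a block STE3 (1.80) was not called either, and SAG1 was 2.34 and called.

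For the H4 lysines 1 of 5 members was called, against 3.17% in either direction. AFB1 had an interaction of 1.84 ± 0.28 (adjusted p = 0.00576), being 2.98-fold below wild type in the double mutant against 5.27-fold in the RPD3 deletion and 2.02-fold in the H4 lysine substitution. SAG1 came close at 1.88 ± 0.48 (adjusted p = 0.0502), and passed without the first wild-type array (2.13), under quantile normalization (2.16) and under median centring (1.89). The interactions of MF(ALPHA)2 (1.61 ± 0.71), STE3 (0.30 ± 0.33) and MF(ALPHA)1 (0.39 ± 0.43) were not called. With day as a block the AFB1 interaction was 1.40 and not called.

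**Figure D4:**
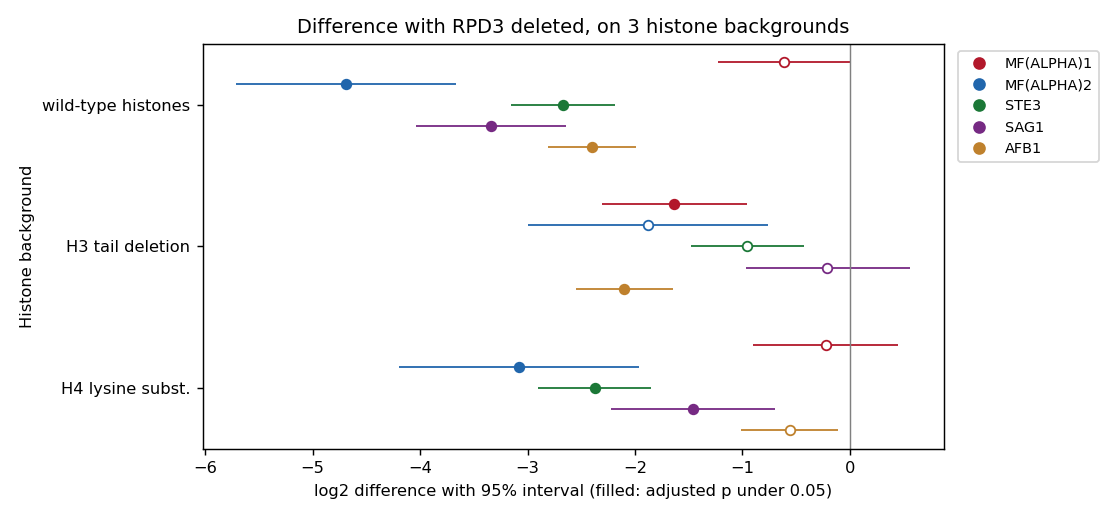
Points are the log2 difference between strains with and without RPD3 deleted, on wild-type histones, on the H3 tail deletion and on the H4 lysine substitution, with 95% intervals and filled points for an adjusted p under 0.05. The SAG1 point moves from -3.34 on wild-type histones to -0.21 on the H3 tail deletion, and the AFB1 point from -2.40 to -0.56 on the H4 lysine substitution.

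Set directly against the RPD3 deletion, the H3 double mutant had 2 of 5 members called, both lower, against 7.24% in either direction. MF(ALPHA)1 was 2.74-fold lower (-1.45 ± 0.31, adjusted p = 0.0138) and AFB1 2.42-fold lower (-1.28 ± 0.21, adjusted p = 0.00243). MF(ALPHA)2 (-0.65 ± 0.52), STE3 (-0.22 ± 0.25) and SAG1 (0.55 ± 0.36) were not called. Both groups were sampled on days A and B, and within each day MF(ALPHA)1 differed by -0.99 and -1.92 and AFB1 by -1.50 and -1.06. The day B array of the double mutant had another strain in its header. The MF(ALPHA)1 call was lost without the second RPD3 deletion array (-1.43) or the second double mutant array (-1.02).

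The H4 double mutant against the RPD3 deletion gave 2 of 5 called, both higher, against 17.2% in either direction. MF(ALPHA)2 was 3.06-fold higher (1.61 ± 0.52, adjusted p = 0.0481) and AFB1 1.77-fold higher (0.82 ± 0.21, adjusted p = 0.0193). These groups came from different periods, and with period as a block neither was called, at 0.95 for MF(ALPHA)2 and 0.52 for AFB1. With the replicate number as a block MF(ALPHA)2 was 1.61 and not called (adjusted p = 0.0529). With chip lot as a block MF(ALPHA)2 turned to -0.26 and AFB1 was 0.16. With the actin ratio as a covariate they were 0.75 and 0.53, neither called. Without the first RPD3 deletion array MF(ALPHA)2 was 0.90 and not called, without the second it was 2.32, and without either array of the double mutant it was 1.45 or 1.78, not called. AFB1 lost its call without the second RPD3 deletion array (0.77) and without either double mutant array (0.75 and 0.90).

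The 2 H3 mutants did not differ detectably in these genes. None of the 5 was called between the H3 tail deletion and the H3 lysine substitution, where 0.395% of probe sets were, and 0 had an unadjusted p under 0.05 in limma. Log2 differences lay between -0.06 for MF(ALPHA)1 and 0.38 for STE3, with 95% intervals of -0.90 to 1.15 for MF(ALPHA)2, -0.10 to 0.87 for STE3 and -0.70 to 0.69 for SAG1. The groups came from different periods.

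The 2 H4 mutants differed in all 5 genes, each lower in the tail deletion, against 5.45% called in either direction. MF(ALPHA)1 was 47.2-fold lower (log2 -5.56 ± 0.31, adjusted p = 1.95e-07), MF(ALPHA)2 50.8-fold (-5.67 ± 0.52, adjusted p = 4.36e-05) and SAG1 6.62-fold (-2.73 ± 0.36, adjusted p = 0.000878). STE3 was 4.57-fold lower and AFB1 4.06-fold. Period differed between these groups too, and chip lot was known for only the second H4 tail deletion array, which a lot block used alone. With period as a block MF(ALPHA)1 was -4.67 and MF(ALPHA)2 -5.00, both called, and SAG1 was -2.15 and not called. With chip lot as a block MF(ALPHA)1 alone kept its call, and MF(ALPHA)2 was -3.27, STE3 -1.88, SAG1 -0.87 and AFB1 -1.29.

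Between the tail deletions, 3 of 5 members were lower in the H4 mutant, against 10.4% in either direction. MF(ALPHA)1 was 30.3-fold lower (-4.92 ± 0.31, adjusted p = 9.71e-07), AFB1 2.75-fold (-1.46 ± 0.21, adjusted p = 0.00165) and MF(ALPHA)2 4.60-fold (-2.20 ± 0.52, adjusted p = 0.0192). SAG1 (-1.08 ± 0.36) and STE3 (-0.69 ± 0.25) were lower on average and not called (adjusted p = 0.0671 and 0.0851). On day A, the day both groups share, MF(ALPHA)1 differed by -5.06, MF(ALPHA)2 by -1.29 and AFB1 by -1.19. The MF(ALPHA)2 call was lost without the second H3 tail deletion array (-1.28) and without either H4 tail deletion array (-2.19 and -2.21), and was -3.13 without the first H3 tail deletion array, where SAG1 was also called (-1.66). With sampling day as a block MF(ALPHA)2 was -1.70 and with chip lot -1.67, neither called. Each of these rested on a single H4 tail deletion array. Leaving out every array with another strain in its header, MF(ALPHA)1 alone was called, and AFB1 was -1.19.

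Between the lysine substitutions, 4 of 5 members were higher with the H4 lysines changed than with the H3 lysines changed, against 11.9% in either direction. MF(ALPHA)2 was 12.1-fold higher (3.59 ± 0.48, adjusted p = 0.000832) and had the largest rise of all tested probe sets, at rank 7850 from the lowest. STE3 was 3.70-fold higher (1.89 ± 0.22, adjusted p = 0.000388), SAG1 3.13-fold (1.65 ± 0.32, adjusted p = 0.00675) and AFB1 1.73-fold (0.79 ± 0.19, adjusted p = 0.018). MF(ALPHA)1 differed by 0.58 ± 0.29 and was not called (adjusted p = 0.214). Both groups were from the later period. Without the first H4 lysine substitution array SAG1 (1.46) and AFB1 (0.67) lost their calls, and AFB1 also without the second (0.91) or without the second H3 lysine substitution array (0.72). With chip lot as a block AFB1 was 0.62 and not called (adjusted p = 0.155).

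Genes of the opposite mating type were called in 7 of 28 comparisons with wild type, or 25%, beside 22.2% of all tested probe sets over the 7 mutants. Of 7 a-specific genes 4 were tested, and MFA1 and MFA2, which encode a-factor, were called in 0 of 7 mutants by limma, with 0 of 14 unadjusted p under 0.05. STE6, the a-factor exporter, was higher in 4 mutants, at most by 1.15 ± 0.19 in the H3 double mutant (adjusted p = 0.000655), where it read 269.4 and 379.8. In wild type it was above the floor on 1 of 3 arrays (153.3), so these sizes are taken from values set at the floor. BAR1, the protease that degrades alpha-factor, read 306.1, 462.9 and 219.4 in wild type and was called lower in the 3 groups with a changed H4 tail, the tail deletion, lysine substitution and double mutant in that order (adjusted p = 0.00322, 0.00374 and 0.00433). All 6 arrays of these groups were under the floor, so BAR1 was at least 2.24-fold lower in each, and their order is not known. Median log2 change of the 4 ran from -0.18 in the H3 lysine substitution to 0.55 in the H3 tail deletion, beside medians of all probe sets between -0.08 and 0.03.

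HMRA1 is the a1 gene of a silent mating-type cassette, and where silencing is lost a1 joins with alpha2 to repress haploid-specific genes. Its 1 tested probe set read 975 and 462.2 in the H4 tail deletion and 274 and 308.7 in the H4 lysine substitution. The signals were at most 145.9 in wild type and were 57 and 205.5 in the H4 double mutant, and every array of the other mutants was under the floor. HMRA1 was called higher in the H4 tail deletion (2.24 ± 0.23, adjusted p = 3.81e-05) and the H4 lysine substitution (1.03 ± 0.23, adjusted p = 0.00571), as changes from values set at the floor. Of these 2 groups the first had all 5 alpha-specific genes lower and the second had 2. The part of HMRA1 in the fall of the alpha-specific genes was not tested. The other mating-type locus genes share their probe sets and were not read, and the silencing genes SIR1, SIR2, SIR3 and SIR4 were called in 0 of 7 mutants by limma, with 7 of 28 unadjusted p under 0.05.

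Of 4 listed genes for transcriptional regulators, STE12, MCM1, TUP1 and CYC8, 2 were called lower in some mutants. The 4 were called in 8 of 28 comparisons with wild type (28.6%), all lower. Of all tested probe sets 22.2% were called in either direction and 10.5% lower. STE12, which encodes the activator of the pheromone response, was lower in 4 mutants, by 1.25 in the RPD3 deletion (log2 -1.25 ± 0.25, adjusted p = 0.00429) and 1.36 in the H4 tail deletion (-1.36 ± 0.25, adjusted p = 0.00153). MCM1, the partner of alpha1, was lower in 4 mutants, at most by 1.06 in the H3 double mutant (-1.06 ± 0.22, adjusted p = 0.00328). TUP1 and CYC8, which encode a corepressor, were called in 0 of 7, with 1 of 14 unadjusted p under 0.05. In the H4 lysine substitution 0 of these 4 genes was called by limma, and 1 had an unadjusted p under 0.05. Genes that process alpha-factor were called lower in 3 of 21 comparisons (14.3%), near the 10.5% of all tested probe sets. Of these, KEX2, the protease that cuts the precursor, was lower in 3 mutants, between -0.74 and -0.64. KEX1 and STE13, which trim it, were called in 0, with 4 of 14 unadjusted p under 0.05 in limma.

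Of genes downstream of the pheromone receptors, signalling genes were called lower in 38 of 77 comparisons with wild type (49.4%) and induced genes in 49 of 70 (70%), beside 10.5% of all tested probe sets. Of 11 pheromone signalling genes, 3 were lower and 1 higher in the RPD3 deletion, 3 and 1 in the H3 tail deletion, 6 and 0 in the H3 lysine substitution, 7 and 1 in the H4 tail deletion, and 7 and 0 in the H4 lysine substitution. The H3 double mutant had 6 lower and 1 higher and the H4 double mutant 6 and 0. The median change over the 11 was -0.16 in the RPD3 deletion, -0.40 in the H3 tail deletion and, lowest, -2.29 with the H4 tail deleted. FAR1, which arrests the cell cycle in response to pheromone, fell by up to 4.76 in the H4 tail deletion (-4.76 ± 0.26, adjusted p = 8.47e-08), where 1 of its 2 arrays was under the floor. FUS3, a kinase of the cascade, was under the floor on both arrays there, and was at least 8.08-fold lower. In the H4 lysine substitution SST2, which dampens the signal, and FUS3 were both at -1.95. SST2 had the largest change of the list in the RPD3 deletion, -2.69 ± 0.26, followed by STE11, a kinase that was higher (1.29 ± 0.24).

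Of 10 genes that pheromone induces, 8 were lower in the RPD3 deletion, in the H4 lysine substitution and in the H4 double mutant, 7 in both H3 single mutants, 6 in the H4 tail deletion and 5 in the H3 double mutant. CHS7 was the 1 called higher, in 5 of the mutants. AGA1, which anchors the agglutinin of a cells, was -3.05 ± 0.31 in the RPD3 deletion (adjusted p = 4.9e-05) and -2.92 ± 0.31 in the H4 tail deletion, and FUS1, needed for cell fusion, was -2.67 ± 0.28 and -2.70 ± 0.28. In the H4 lysine substitution, KAR4 (-2.01 ± 0.34, adjusted p = 0.00128), a factor for nuclear fusion genes, and AGA1 (-1.73 ± 0.31) led the list. The median change of the induced genes there was -1.30, beside -0.43 for the alpha-specific genes and -0.07 for all probe sets.

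Across the 18 arrays the probe sets most like each member were found by Pearson's r of log2 signal among tested probe sets for 1 gene. MF(ALPHA)2 was closest to SAG1 (0.948), STE3 (0.910) and AFB1 (0.908). The third gene was TYE7 for STE3 (0.855), GIC2 for SAG1 (0.908) and SPC1 as the second for AFB1 (0.864), the other places being held by members. TYE7 encodes a transcription factor of glycolytic genes, GIC2 an effector of the polarity GTPase Cdc42 and SPC1 a subunit of signal peptidase. MF(ALPHA)1 had no member among its closest, which were OLI1 (0.930), encoded in the mitochondrial genome, ATP4 (0.880) and ATP7 (0.865), each a subunit of the mitochondrial ATP synthase. All these correlations rest on the same arrays and on differences between the same 8 groups. Outside the H4 tail deletion and the H3 double mutant, MF(ALPHA)1 read 16653 or more on every array. Its correlations therefore lean on the arrays of those groups.

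Genes next to the members on the chromosome were called at about the share of all probe sets. In the R64 gene table the 5 members had 10 protein-coding neighbours, of which 9 were tested alone. Over 7 mutants these gave 63 comparisons, of which 8 were called lower and 5 higher, 20.6% in all beside 22.2% of all tested probe sets, with log2 changes from -1.51 to 1.47. UIP4, beside MF(ALPHA)1, held all 5 of the rises, the largest in the RPD3 deletion (1.47 ± 0.30, adjusted p = 0.0045), where MF(ALPHA)1 was not called. Its wild-type signal was above the floor on 1 of 3 arrays. POS5, on its other side, fell by 0.98 in the H4 tail deletion (-0.98 ± 0.21, adjusted p = 0.0039), where MF(ALPHA)1 fell by 5.35. MRX12, beside SAG1, was lower in 3 mutants, between -0.95 and -0.75, and NFG1, beside AFB1, was lower in both double mutants (-1.51 ± 0.49 and -1.48 ± 0.49).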

How the data were processed

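Signals came from the deposited table of 18 arrays, an intensity per probe set whose probe-level summary was not stated in the sources used here. The authors had scaled arrays alike, as the values show: 2% trimmed means ran from 1499 to 1500 and medians from 387.1 to 545.0. The authors' array settings, an "other" unit, gave chip lots for 17 arrays per the file headers. Here each array was set to the common trimmed mean, signals under the pooled 25th percentile (140.2) were raised to it, and 7850 of 9275 probe sets (9335 with 60 controls), those above the floor on at least 2 arrays, were tested. All 5 members passed, and none was at or under the floor on any array.

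limma 3.58.1 in R 4.3.3 fitted log2 signals of all 18 arrays with a mean per group and a trended variance (10 residual and 3.76 prior degrees of freedom). Tests were two-sided, with Benjamini-Hochberg adjustment over all probe sets within each of 17 contrasts. Errors of log2 values are standard errors. The p-values measure the spread between arrays, which may be technical, and the number of arrays limits precision. Alternatives covered scaling, floor, filter, variance model, batch blocks, the actin ratio and arrays left out; the wild-type arrays of 1 period alone were chosen after seeing the data.

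Members, lists and tests were chosen with earlier results of these data known. Named were all members, their 3 most correlated genes, chromosome neighbours, the 2 largest changes per list in a contrast described, HMRA1 and RPD3; UIP4, POS5, MRX12 and NFG1 among the neighbours, and list genes given for their counts over mutants, were picked for their calls. Probe sets naming several genes were not read, and MFA1 was read from its probe set above the floor on all 18 arrays. The other tested MFA1 probe set was above the floor on 2 arrays and was not used. All 6504 probe sets for 1 gene matched the R64 gene table by gene identifier. Arrays with replicate numbers 1 and 2 of the RPD3 deletion, H3 tail deletion and H3 double mutant were from days A and B. Deviations of their same-numbered arrays correlated at -0.05 to 0.34. No coordinates are given, since the build behind the probe sets is not named in the sources used here.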

Additional observations from a re-analysis of the deposited data

Results flagged for a closer look

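Interaction terms of the RPD3 deletion with a histone mutation were called in 4 member tests in limma. With the H3 tail deletion the interaction was 3.13 ± 0.48 for SAG1, 2.81 ± 0.71 for MF(ALPHA)2 and 1.72 ± 0.33 for STE3 (adjusted p = 0.0045, 0.0367 and 0.0111). With the H4 lysine substitution it was 1.84 ± 0.28 for AFB1 (adjusted p = 0.00576). The cause was not tested. All 4 are positive on the log2 scale, so that the double mutant was higher than the sum of the single changes, and all 4 genes were still below wild type in both double mutants. For MF(ALPHA)2 and STE3 that sum would lie below the floor of 140.2, so the positive sign was fixed in advance.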

How the results depend on the processing

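Of 1017 alternative values of the 53 called member changes, 918 kept direction and call, 98 kept direction and lost the call, and 1 reversed, MF(ALPHA)2 in the H4 double mutant against the RPD3 deletion with chip lot as a block (-0.26). The cause of these changes was not tested, except that a fit on the compared groups alone has fewer arrays for the spread. That fit called 0 members in the H3 tail deletion and the H4 lysine substitution against wild type, in each double mutant against its histone mutant or against the RPD3 deletion, between the tail deletions and in the H3 interaction, and 2 between the H4 mutants. In the H4 lysine substitution against wild type 1 member was called with median centring, no filter, no variance trend, the replicate block, period as a block or wild type of 1 period, and 0 with chip lot as a block. In the H4 double mutant against the RPD3 deletion 1 was called with the 10th percentile floor, no filter, no trend or the replicate block, and 0 with period, chip lot or the actin ratio. Chip lot as a block left 1 call between the H4 mutants, and day as a block 1 in the H3 and 0 in the H4 interaction, which had 2 with quantile normalization, median centring or the 40th percentile floor. Leaving out every array with another strain in its header, 1 was called in the H3 double mutant against the H3 tail deletion or the RPD3 deletion and between the tail deletions. Leaving out single arrays gave 1 to 2 for the H4 lysine substitution, 1 to 2 for each double mutant against its histone mutant and the H3 double mutant against the RPD3 deletion, 0 to 1 for the H4 double mutant against it, 2 to 4 between the tail deletions and between the lysine substitutions, 2 to 3 for the H3 and 1 to 2 for the H4 interaction, with no other count changed.
Replicate numbers pair arrays by day only as stated above; elsewhere they share only a number, and the block changed no other count by over 1.5 times. Day as a block could not be fitted where days and groups coincide. In the H4 tail deletion day as a block left the first array, and chip lot the second, whose header named another strain. Of 613 alternatives of the 32 uncalled changes 13 were called and 42 changed sign, without a call before or after. Signs changed for MF(ALPHA)1 in the H4 lysine substitution with period (-0.39), chip lot (-0.32), wild type of its period (-0.39) and arrays left out (-0.01 to 0.51). For MF(ALPHA)2 there they changed with quantile normalization (-0.13), period (-0.44), lot (-1.13), wild type of its period (-0.44) and arrays left out (-0.16 to 0.22). In the H4 double mutant MF(ALPHA)1 changed sign with median centring (0.00), the replicate block (0.17), the actin ratio (0.03) and arrays left out (-0.24 to 0.28). Against the RPD3 deletion that mutant changed sign for MF(ALPHA)1 with period (-0.30) and lot (-0.02), STE3 with median centring (0.02) and period (0.23) and SAG1 with lot (-0.47). For SAG1 in the H3 double mutant against the H3 tail deletion it was 0.32 without the header arrays and -0.79 to 0.37 with arrays left out, and for MF(ALPHA)2 against the RPD3 deletion -1.36 to 0.05. Between the H3 mutants, MF(ALPHA)1 turned with quantile normalization (0.14), period (0.84), lot (0.60), replicate block (0.12), header arrays (0.18) and arrays left out (-0.30 to 0.18). MF(ALPHA)2 turned with quantile normalization (-0.04), median centring (-0.09), header arrays (-0.80) and arrays left out (-0.80 to 1.05), and SAG1 with period (0.58), lot (1.06), replicate block (0.03), actin ratio (0.43) and arrays left out (-0.58 to 0.58). The AFB1 H3 interaction was -0.13 with day as a block.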
